A study of Rattus norvegicus with 6 samples.

Results

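Hox genes were taken as every row of the deposited gene table whose symbol is Hox, a cluster letter from A to D and a number, in any letter case. This gave 40 of 23091 rows and 39 different genes, because Hoxa3 has a second row, written in capitals, with 0 counts in every library. Of the 40 rows, 31 had at least 1 count and 25 passed the filter on low counts, among 13999 genes of the whole table that passed it. The libraries were made from polyadenylated RNA of regenerated sciatic nerve of male, wild-type Sprague-Dawley rats, and a sciatic nerve defect had been made in both groups. In the GDNF-Gel/HA-Mg group the defect received the implant of that name, where GDNF is glial cell line-derived neurotrophic factor. Its 3 libraries are called implant 1, implant 2 and implant 3. In the NC group (NC 1, NC 2 and NC 3) the wound was closed with no implant. The labels give neither the age of the rats nor the time after surgery, nor do they tie each library to an animal of its own. The p-values therefore measure the spread between these samples, which may be technical.

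Hox genes encode transcription factors with a homeodomain, a DNA-binding domain that they share. In mammals they lie in 4 clusters, HoxA to HoxD, and genes at the same place in different clusters are paralogues with the same number, from 1 to 13. In the embryo, low numbers are used from the hindbrain backward and high numbers only toward the tail and the far end of the limb, so the set of active Hox genes marks a position along the body. Adult fibroblasts, muscle and other connective tissue cells are known to keep much of that set, and motor neurons and neural crest cells use it at the level of the spinal cord from which a nerve arises. The sciatic nerve is a nerve of the hindlimb with lumbar and sacral roots.

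The libraries held 16120518 to 18491379 counts in the implant group and 15897850 to 17990057 in the NC group. Haemoglobin genes took 8.08% to 14.8% of the counts with the implant and 1.02% to 25.2% in NC, so levels are given as CPM, counts relative to a library size scaled by TMM. One count was worth 0.0543 to 0.0589 CPM in the implant libraries and 0.0519 to 0.0722 CPM in the NC libraries. For the labelled tissue, 8 of 8 listed Schwann cell markers, 8 of 8 of fibroblasts and 6 of 6 of endothelium had counts, while 2 of 5 perineurial markers were at 0. The 9 skeletal muscle and 8 adipocyte markers in the table also all had counts, so the presence of counts does not identify the tissue. No transcript lengths were used, so a CPM value compares 1 gene between libraries, and the order of different genes by CPM is not an order of their levels.

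In both groups Hox counts ran through the clusters up to paralogue 9, 10 or 11 and stopped, or nearly so, before the paralogue 13 end. In the RefSeq table (GRCr8), the members of each cluster lie in the order of their paralogue numbers. Rows were matched to RefSeq by symbol alone, and RefSeq gives Hoxa10 as an older name of Hoxa11. HoxC genes had counts from Hoxc4 to Hoxc11 in all 6 libraries, and Hoxc12 and Hoxc13 had 0. HoxD genes had counts from Hoxd3 to Hoxd10, with Hoxd3 at 0 in NC 2, while Hoxd11, Hoxd12 and Hoxd13 had 0. HoxB genes had counts from Hoxb2 to Hoxb9 in all 6 libraries and 0 for Hoxb13. HoxA counts reached Hoxa10 in all 6 libraries, thinned out at Hoxa11 and came to a single count of Hoxa13, in NC 1. At the other end, Hoxb1 and Hoxd1 had 0 counts.

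The genes at 0 in every library thus were Hoxb1, Hoxb13, Hoxc12, Hoxc13, Hoxd1, Hoxd11, Hoxd12 and Hoxd13, beside the second Hoxa3 row. They are 22.5% of the Hox rows, against 24.1% of the rows of the whole table at 0. Over the 102540697 counts of the 6 libraries, a count of 0 allows a level of up to 0.0293 CPM (3 counts of the unscaled total), which covers counting error only. Paralogues 12 and 13 are known from mouse for the shaping of the digits, the genital tubercle and the tail end. The homeobox genes Evx1 and Evx2, which flank the HoxA and HoxD clusters beyond paralogue 13, also had 0 counts in the 6 libraries.

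**Figure D1:**
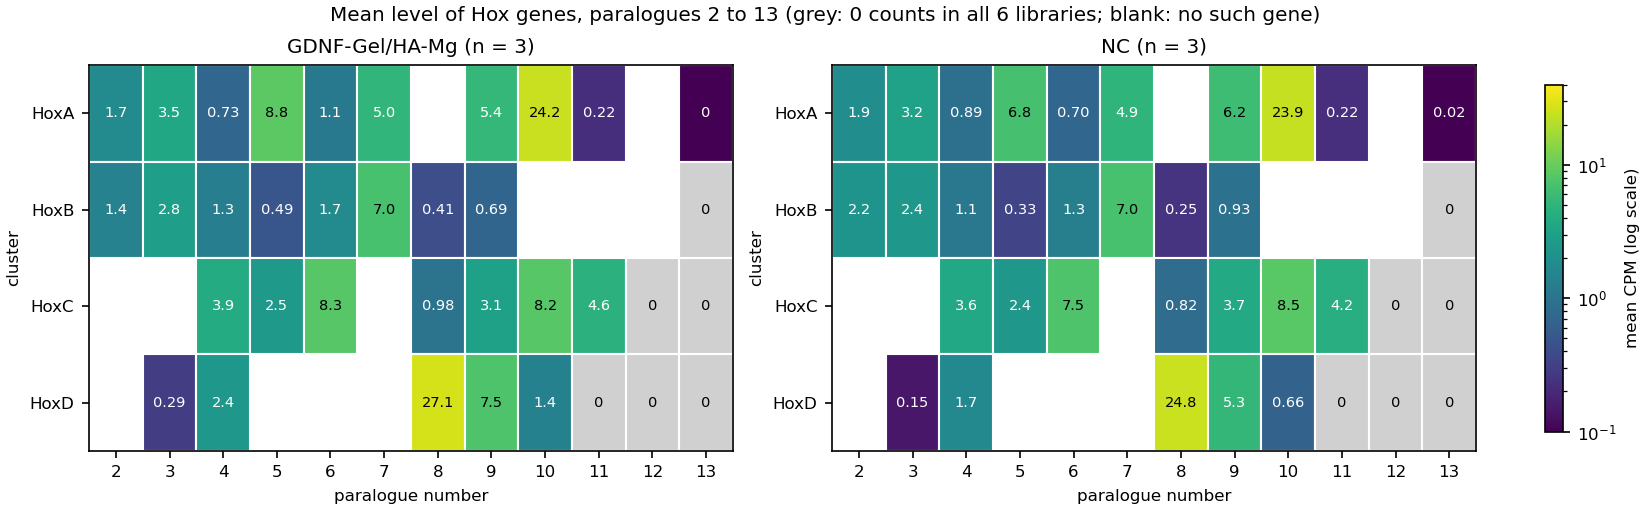
Mean CPM of the Hox genes of paralogue numbers 2 to 13 by cluster (rows) and paralogue number (columns) in the GDNF-Gel/HA-Mg libraries on the left and the NC libraries on the right, n = 3 each, with colour on a log scale. Grey cells had 0 counts in all 6 libraries and blank cells have no gene, and counts in both groups end at Hoxb9, Hoxc11 and Hoxd10, with Hoxa13 at 1 count in NC 1.

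The end of counting inside HoxD is shown by sequence, because 4 neighbours there run in order from the member with the most counts to one with none. The 250 bases before the annotated start of each are RefSeq's (GRCr8, plus strand), 5′ to 3′. The 2 annotated starts of Hoxa10 (minus strand, given in the direction of the gene) are shown beside them, because paralogue group 10 had the highest summed CPM. Hoxd10 and Hoxa10 were taken by that rule, and Hoxd8, Hoxd9 and Hoxd11 were added after their values were seen. RefSeq's table held windows for 20 of the 39 genes, matched by symbol alone, Hoxc10 not among them. Capitals mark CACGTG, a palindrome bound by E-box factors such as USF and MYC.
Hoxd8 (chr3:80014973-80015222, 425, 516 and 481 counts with the implant and 489, 382 and 375 in NC): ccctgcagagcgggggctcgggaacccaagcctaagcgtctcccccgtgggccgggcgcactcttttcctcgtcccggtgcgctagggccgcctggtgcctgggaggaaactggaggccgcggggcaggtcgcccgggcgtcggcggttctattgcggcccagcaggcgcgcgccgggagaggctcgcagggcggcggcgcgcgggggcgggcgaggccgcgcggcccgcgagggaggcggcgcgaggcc
Hoxd9 (chr3:80007756-80008005, 116, 195 and 85 counts with the implant and 83, 56 and 115 in NC): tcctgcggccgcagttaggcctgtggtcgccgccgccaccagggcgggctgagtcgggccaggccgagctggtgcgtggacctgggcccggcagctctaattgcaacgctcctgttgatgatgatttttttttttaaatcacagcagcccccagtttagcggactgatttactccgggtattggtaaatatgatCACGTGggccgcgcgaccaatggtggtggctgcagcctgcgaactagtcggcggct
Hoxd10 (chr3:80001697-80001946, 24, 37 and 11 counts with the implant and 13, 5 and 14 in NC): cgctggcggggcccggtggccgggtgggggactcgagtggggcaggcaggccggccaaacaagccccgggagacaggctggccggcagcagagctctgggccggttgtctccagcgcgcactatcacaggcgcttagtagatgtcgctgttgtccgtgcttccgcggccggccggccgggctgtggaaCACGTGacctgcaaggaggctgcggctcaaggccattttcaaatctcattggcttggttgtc
Hoxd11 (chr3:79992144-79992393, 0 counts in each library): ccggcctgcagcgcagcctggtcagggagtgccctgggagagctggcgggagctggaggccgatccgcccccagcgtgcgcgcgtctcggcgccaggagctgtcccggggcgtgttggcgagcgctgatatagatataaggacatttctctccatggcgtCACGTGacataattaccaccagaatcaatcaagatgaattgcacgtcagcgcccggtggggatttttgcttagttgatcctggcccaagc
Hoxa10, first start (chr4:82671491-82671740): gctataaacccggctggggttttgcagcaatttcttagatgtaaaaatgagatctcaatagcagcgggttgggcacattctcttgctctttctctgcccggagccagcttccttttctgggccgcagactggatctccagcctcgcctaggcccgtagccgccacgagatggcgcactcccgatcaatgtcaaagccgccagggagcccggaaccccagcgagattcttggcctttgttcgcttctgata
Hoxa10, second start (chr4:82665923-82666172, 384, 508 and 384 counts with the implant and 528, 306 and 368 in NC for the whole gene): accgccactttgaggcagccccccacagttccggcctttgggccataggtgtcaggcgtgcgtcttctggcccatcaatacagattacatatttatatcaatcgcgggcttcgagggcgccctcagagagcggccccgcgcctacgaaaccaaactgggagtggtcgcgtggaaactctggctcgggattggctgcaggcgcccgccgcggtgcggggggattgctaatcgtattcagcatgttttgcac

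CACGTG stood before Hoxd9 and Hoxd10, which had counts, and also before Hoxd11, which had none. It was in neither of the Hoxa10 windows nor in that of Hoxd8. Over the Hox genes, 8 of 21 windows held it (38.1%), against 5.59% of 33469 windows of the same length for all genes in the table. It was in 6 of 16 windows of members with counts and in 2 of 5 windows of members at 0. The other holders were Hoxa4, Hoxa7, Hoxa9, Hoxd1 and Hoxd3. The motif was searched after the sequences had been looked at, and a match of letters is a description and not a site.

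The same windows were rich in CG. The median window of a Hox member held 20 CG pairs, against 5 over all genes, and the median was 19 for members with counts and 20 for those at 0. CACGTG itself holds a CG pair. The windows of all genes were not matched in CG content, so no motif share was compared at equal content. TATAAA, on either strand, was in 4 of 21 Hox windows (19.0%) against 12.9% of all windows. CCAAT, on either strand, was in 12 of 21 (57.1%) against 34.0%. TGATNNAT, a composite that Pbx and Hox proteins are known to bind together, was in 3 of 21 (14.3%) on either strand, against 7.96%. Those 3 were before Hoxa2, Hoxb1 and Hoxd11. Overlaps between motifs were not removed, Hoxd11 holding both CACGTG and TGATNNAT.

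The comparison of the groups asked whether the Hox set of the injured nerve differed with the implant. No Hox gene passed the test. With p-values adjusted by Benjamini-Hochberg over 13999 genes, edgeR's quasi-likelihood test called 0 of 25 Hox genes, with a smallest adjusted p of 1.00, and it called 0 of all genes, a background of 0%. At an unadjusted p under 0.05 it found 0 of the 25 Hox genes, against 1.66% of all genes (1% higher and 0.664% lower). DESeq2 called 0 of the 25, against 0.0786% of all genes, and limma-voom called 0 of either. The median log2 fold change of the 25 was 0.11 (implant over NC), beside a median of -0.01 over all genes tested, and 18 were positive, which is 72.0% against 47% of all genes. That split moved with single libraries, to 15 positive and 11 negative without NC 2, 15 and 10 without implant 2, and 19 and 6 without NC 1.

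How large a change the data leave room for differed by gene. The 95% interval lay within a 2-fold change in either direction for 9 of the 25 genes and within a 4-fold change for 23. The median standard error was 0.37 on the log2 scale, against 0.23 over all genes, and the widest interval, that of Hoxb9, ran from -2.33 to 1.51. A p that missed the threshold does not show that the groups were alike. Groups that did not overlap were found for 2 of the 25 (8%), Hoxa5 above and Hoxb2 below, against a background of 5.68% of all genes (2.8% above and 2.88% below).

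**Figure D2:**
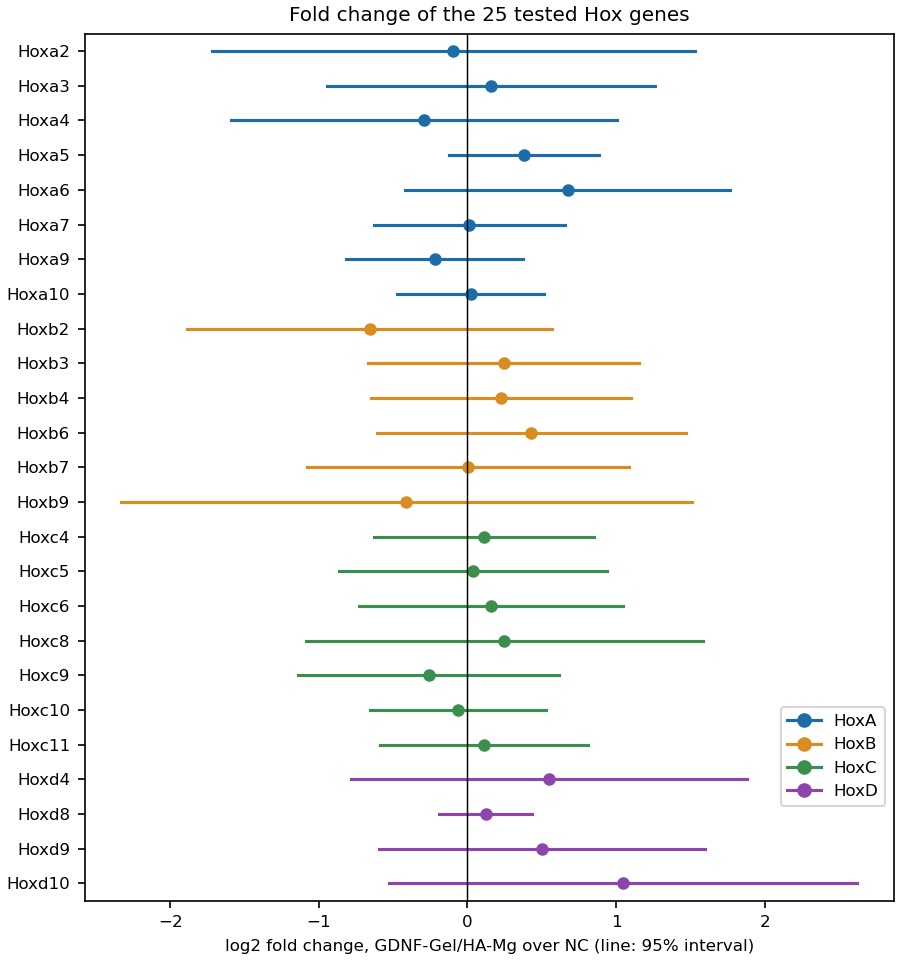
Log2 fold change of GDNF-Gel/HA-Mg over NC (x axis) for the 25 tested Hox genes (y axis, by cluster and paralogue number), with points for estimates and lines for approximate 95% intervals from edgeR. Every interval spans 0, from -0.19 to 0.44 for Hoxd8, the narrowest, and from -2.33 to 1.51 for Hoxb9, the widest.

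In HoxA, the levels of the anterior genes Hoxa2, Hoxa3 and Hoxa4 varied between libraries of at least 1 group. Hoxa2 (ENSRNOG00000005968), which sets the identity of the second pharyngeal arch in mouse, stood at 2.69, 1.85 and 0.648 CPM with the implant and at 1.61, 0.924 and 3.03 CPM in NC. Hoxa3 (ENSRNOG00000006281), needed for the thymus and parathyroids in mouse, stood at 3.39, 3.75 and 3.48 CPM with the implant and at 3.58, 1.39 and 4.55 CPM in NC. Both were highest in NC 3, and the groups overlapped. Hoxa4 (ENSRNOG00000027365) stood at 1.23, 0.543 and 0.412 CPM with the implant and at 0.882, 0.924 and 0.867 CPM in NC, so the implant libraries lay on both sides of a narrow NC range. Their log2 fold changes were -0.09 ± 0.67 (SE) for Hoxa2, 0.16 ± 0.45 for Hoxa3 and -0.29 ± 0.53 for Hoxa4, which ranged from -0.88 without implant 1 to -0.013 without implant 3.

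Hoxa5 had the smallest unadjusted p of the 25. Hoxa5 (ENSRNOG00000047951), known in mouse for lung and vertebral patterning, stood at 7.90, 7.66 and 10.96 CPM with the implant and at 7.005, 6.24 and 7.08 CPM in NC. Each implant library lay above each NC library, though implant 2 and NC 3 were close and implant 3 stood apart. The log2 fold change was 0.38 ± 0.21 (SE, 95% interval -0.12 to 0.89), with an edgeR unadjusted p of 0.113 and an adjusted p of 1.00. Without implant 3 it was 0.20.

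Hoxa6 (ENSRNOG00000048917), the next gene of the cluster, stood at 0.936, 1.303 and 1.12 CPM with the implant and at 0.467, 0.982 and 0.650 CPM in NC. NC 2 lay just above implant 1, so the groups overlapped by a single library. Its log2 fold change was 0.68 ± 0.45 (SE, edgeR unadjusted p 0.182, adjusted p 1.00), and it ranged from 0.47 without NC 1 to 1.004 without NC 2. In RefSeq's annotation the span of Hoxa3 overlaps those of Hoxa4, Hoxa5 and Hoxa6, so reads there may be shared between these genes. The span of Hoxaas3 also overlaps those of Hoxa3, Hoxa5 and Hoxa6, and the libraries do not mark the strand. Spans of other genes overlap 12 of the 39 members. Outside HoxA these are Hoxb3, Hoxb5, Hoxb6, Hoxc4, Hoxc5, Hoxc6, Hoxc11 and Hoxd4.

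Hoxa7, Hoxa9 and Hoxa10 had overlapping groups and log2 fold changes smaller than their standard errors. Hoxa10 (ENSRNOG00000065199), which in mouse helps to give lumbar vertebrae their form and patterns the upper part of the hindlimb, stood at 22.5, 27.6 and 22.6 CPM with the implant and at 27.4, 17.7 and 26.6 CPM in NC. It had the most counts of its cluster, and the group means were 24.2 ± 2.91 CPM with the implant and 23.9 ± 5.39 CPM in NC (SD, n = 3 each). Its log2 fold change of 0.02 ± 0.20 had a 95% interval from -0.48 to 0.52. Hoxa7 (ENSRNOG00000046361) stood at 4.86, 4.996 and 5.13 CPM with the implant, a narrow range, and at 5.76, 5.60 and 3.47 CPM in NC, where NC 3 was low. Hoxa9 (ENSRNOG00000064322), also known for its part in blood cell progenitors, stood at 4.15, 6.30 and 5.60 CPM with the implant and at 7.11, 5.31 and 6.29 CPM in NC. The log2 fold change of Hoxa7 was 0.01 ± 0.26 and that of Hoxa9 was -0.22 ± 0.24.

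Hoxa11 and Hoxa13 were too low to be tested. Hoxa11 (ENSRNOG00000059870), which patterns the middle segment of the limb in mouse, had 2, 9 and 1 counts with the implant and 4, 8 and 0 in NC. The antisense gene Hoxa11-as, matched in the table by an older RefSeq name, had 0, 4 and 1 counts with the implant and 3, 3 and 1 in NC. No RefSeq gene span overlaps that of Hoxa11. Hoxa11-as was the 1 entry matched of 17 listed noncoding genes of the clusters, and Hotair was not matched.

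**Figure D3:**
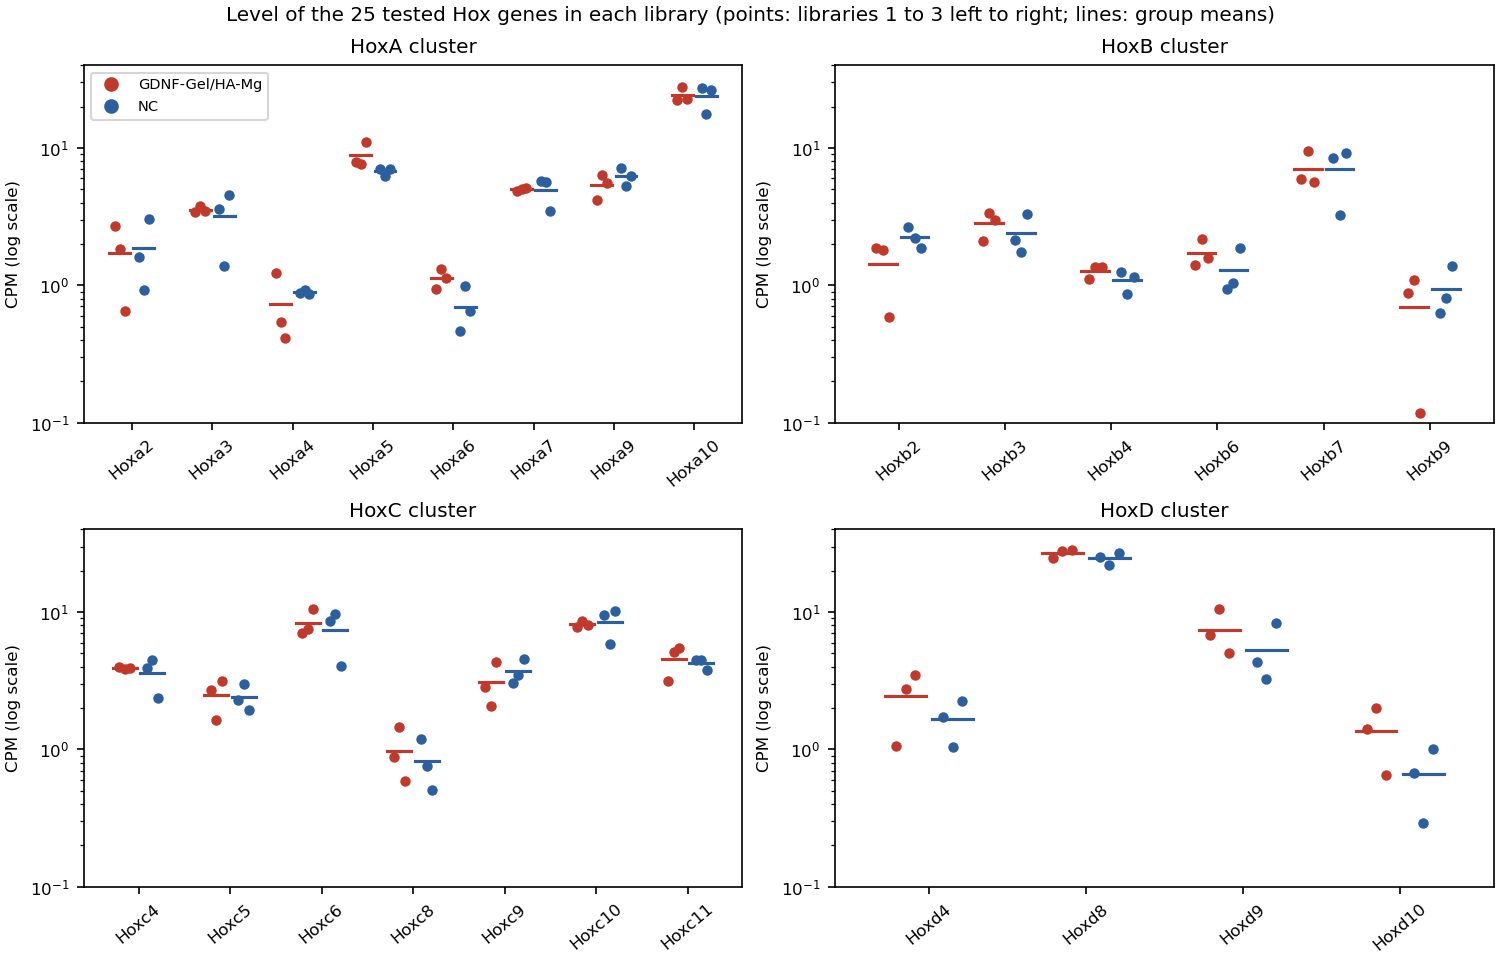
CPM on a log axis for the 25 tested Hox genes, 1 panel per cluster, with GDNF-Gel/HA-Mg libraries (red, left) and NC libraries (blue, right) as points from library 1 to 3 and group means as lines. Points of both groups share their range for 23 genes, and Hoxa5 and Hoxb2 are the exceptions.

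In HoxB, Hoxb7 had the most counts. Hoxb7 (ENSRNOG00000007611) stood at 5.91, 9.45 and 5.66 CPM with the implant and at 8.51, 3.23 and 9.25 CPM in NC. NC 2 was below every other library, and the means were 7.005 ± 2.12 CPM with the implant and 6.997 ± 3.28 CPM in NC (SD, n = 3 each). The log2 fold change was 0.00 ± 0.44, and its sign turned with RLE scaling and with DESeq2. Hoxb2 (ENSRNOG00000008365), a hindbrain gene in the embryo, stood at 1.87, 1.79 and 0.589 CPM with the implant and at 2.65, 2.195 and 1.88 CPM in NC. All implant libraries lay below all NC libraries, but implant 1 and NC 3 differed by less than the worth of 1 count. Its log2 fold change of -0.66 ± 0.50 had an edgeR unadjusted p of 0.238 and an adjusted p of 1.00, and it was -0.29 without implant 3.

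The other HoxB genes had few counts. Hoxb3 (ENSRNOG00000008313) stood at 2.11, 3.37 and 3.01 CPM with the implant and at 2.13, 1.73 and 3.32 CPM in NC. Hoxb6 (ENSRNOG00000007823) stood at 1.40, 2.17 and 1.59 CPM with the implant and at 0.934, 1.04 and 1.88 CPM in NC. Both were high in implant 2 and in NC 3, and both groups overlapped. Hoxb4 (ENSRNOG00000008191), known as a regulator of blood stem cells, ranged from 1.11 to 1.36 CPM with the implant and from 0.866 to 1.25 CPM in NC. Hoxb9 (ENSRNOG00000007573) had 15, 20 and 2 counts with the implant and 12, 14 and 19 in NC, and the 2 counts of implant 3 made its fold between the highest and the lowest library, 11.6, the widest of the 25. Log2 fold changes were 0.24 ± 0.37 for Hoxb3, 0.23 ± 0.36 for Hoxb4, 0.43 ± 0.43 for Hoxb6 and -0.41 ± 0.79 for Hoxb9. Hoxb5 and Hoxb8 stayed between 2 and 14 counts in each library and were not tested.

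Summed by cluster, HoxC was lowest in NC 3, while HoxA, HoxB and HoxD were lowest in NC 2. Of the HoxC genes, 3 of 7 were lowest in NC 3. Hoxc6 (ENSRNOG00000063956), a marker of the forelimb level of the spinal cord in the embryo, stood at 7.02, 7.49 and 10.5 CPM with the implant and at 8.67, 9.65 and 4.05 CPM in NC. Hoxc4 (ENSRNOG00000016613) stood at 3.98, 3.86 and 3.89 CPM with the implant and at 3.94, 4.51 and 2.38 CPM in NC. For both genes NC 3 was below the other 5 libraries, which lay close together for Hoxc4. Hoxc8 (ENSRNOG00000028619) was lowest in NC 3 too, at 0.878, 1.47 and 0.589 CPM with the implant and 1.19, 0.751 and 0.506 CPM in NC. Log2 fold changes were 0.11 ± 0.30 for Hoxc4, 0.16 ± 0.37 for Hoxc6 and 0.25 ± 0.55 for Hoxc8, and without NC 3 the first pair stood at -0.11 and -0.14. The spans of Hoxc4 and Hoxc5 each overlap that of Hoxc6 in RefSeq's annotation, so reads may be shared. Hoxc5 (ENSRNOG00000016598) stood at 2.69, 1.63 and 3.12 CPM with the implant and at 2.28, 3.00 and 1.95 CPM in NC.

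Hoxc9 and Hoxc10, unlike Hoxc4, Hoxc6 and Hoxc8, were highest in NC 3. Hoxc10 (ENSRNOG00000016149), which marks lumbar motor neurons and the hindlimb in the embryo, stood at 7.84, 8.63 and 8.01 CPM with the implant and at 9.55, 5.89 and 10.1 CPM in NC. Hoxc9 (ENSRNOG00000016199), which represses the limb-level programme in thoracic motor neurons of mouse, stood at 2.87, 2.06 and 4.30 CPM with the implant and at 3.06, 3.47 and 4.55 CPM in NC. The groups overlapped for both. Hoxc11 (ENSRNOG00000016141), the last HoxC gene with counts, stood at 3.16, 5.10 and 5.48 CPM with the implant and at 4.46, 4.51 and 3.76 CPM in NC. The implant libraries of Hoxc11 lay on both sides of the NC libraries. Log2 fold changes were -0.26 ± 0.36 for Hoxc9, -0.06 ± 0.24 for Hoxc10 and 0.11 ± 0.29 for Hoxc11.

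In HoxD, the 4 tested genes had positive log2 fold changes, and NC 2 was the lowest library for each of them. Hoxd10 (ENSRNOG00000001581), used with Hoxc10 by lumbar motor neurons in the embryo, stood at 1.40, 2.01 and 0.648 CPM with the implant and at 0.675, 0.289 and 1.01 CPM in NC. Implant 3 lay inside the NC range. The log2 fold change was 1.05 ± 0.65 (SE, 95% interval -0.53 to 2.62), the highest of the 25, with an edgeR unadjusted p of 0.155 and an adjusted p of 1.00. It was 0.65 without implant 2 and 1.46 without NC 3. These values rest on 5 to 37 counts in a library.

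Hoxd9 (ENSRNOG00000001580) had more counts. It stood at 6.79, 10.6 and 5.01 CPM with the implant and at 4.31, 3.23 and 8.31 CPM in NC. NC 3 lay above implant 1 and implant 3, and the log2 fold change was 0.50 ± 0.45 (edgeR unadjusted p 0.306, adjusted p 1.00). It was 0.16 without implant 2 and 0.98 without NC 3. Hoxd4 (ENSRNOG00000001578) stood at 1.05, 2.77 and 3.48 CPM with the implant and at 1.71, 1.04 and 2.24 CPM in NC, with a log2 fold change of 0.55 ± 0.55. Implant 1 was as low as NC 2 for this gene, and the log2 fold change was 0.20 without implant 3 and 0.92 without implant 1.

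Hoxd8 (ENSRNOG00000071108), the member with the most counts of all, was also the one that varied least between libraries. It stood at 24.9, 28.0 and 28.3 CPM with the implant and at 25.4, 22.1 and 27.1 CPM in NC, a 1.28-fold range from the lowest to the highest. NC 1 and NC 3 lay above implant 1, so the groups overlapped. The group means were 27.1 ± 1.92 CPM with the implant and 24.8 ± 2.56 CPM in NC (SD, n = 3 each). Its log2 fold change of 0.12 ± 0.13 had a 95% interval from -0.19 to 0.44, the narrowest of the 25. Hoxd3 (ENSRNOG00000001577) had 6, 4 and 5 counts with the implant and 7, 0 and 1 in NC and was not tested.

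Summed over all members, the Hox level was 125, 150 and 137 CPM with the implant and 137, 109 and 139 CPM in NC. The means were 137 ± 12.4 CPM with the implant and 128 ± 16.9 CPM in NC (SD, n = 3 each), a difference of 9.21 CPM that is smaller than the spread within each group. NC 2 was the lowest library, and without it the difference was -0.55 CPM. By library total, without TMM, the sums were 133, 149 and 132 with the implant and 161, 118 and 107 in NC, on the same scale, and NC 3 became the lowest.

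By cluster, the groups overlapped in their shares of the Hox counts, and HoxA had the closest shares over the 6 libraries. HoxA took 38.4%, 37.0% and 36.9% with the implant and 39.8%, 36.8% and 38.4% in NC. HoxD took 27.6%, 29.1% and 27.5% with the implant and 23.6%, 24.5% and 27.9% in NC, where NC 3 lay inside the implant range. HoxC took 22.7%, 20.2% and 26.2% with the implant and 24.2%, 29.3% and 19.7% in NC, and was thus highest in NC 2 and lowest in NC 3. HoxB took 9.41% to 13.7% with the implant and 9.47% to 13.97% in NC. These shares weigh a long transcript more than a short one, so they describe libraries and not clusters.

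By paralogue number the groups overlapped as well. Paralogues 1 to 4 took 14.5%, 13.7% and 12.9% with the implant and 13.6%, 12.9% and 14.6% in NC. Paralogues 5 to 8 took 45.8%, 43.7% and 49.3% with the implant and 44.5%, 48.8% and 40.7% in NC. Paralogues 9 to 13 took 39.7%, 42.6% and 37.8% with the implant and 41.9%, 38.4% and 44.7% in NC. NC 3 had the lowest share of the middle class and the highest of the posterior class. Log2 fold changes were positive for all 9 tested genes of paralogues 5 to 8, with a median of 0.16, for 5 of 8 of paralogues 1 to 4 (median 0.14) and for 4 of 8 of paralogues 9 to 13 (median -0.02). For Hoxa7 and Hoxb7 the sign was negative with DESeq2, for Hoxb7 also with RLE scaling, and for Hoxc5 with limma-voom.

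**Figure D4:**
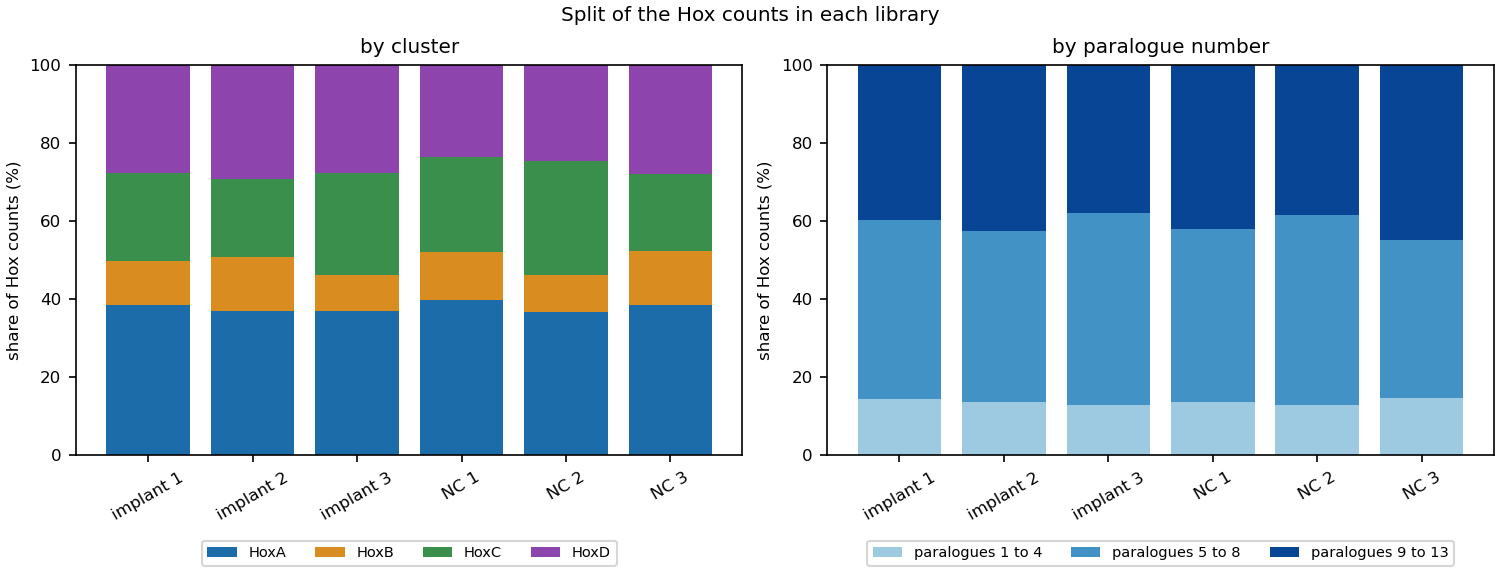
Share of all Hox counts (y axis, percent) by cluster on the left and by paralogue number on the right, in each GDNF-Gel/HA-Mg library (implant 1 to 3) and each NC library. HoxA takes 36.8% to 39.8% in the 6 libraries, and HoxC is highest in NC 2 (29.3%) and lowest in NC 3 (19.7%).

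Which library was lowest differed by cluster. NC 2 was the lowest library for 11 of the 25 tested Hox genes (44%), against 21.8% of all genes tested, and implant 2 was the highest for 9 (36%), against 15.1%. In HoxD, NC 2 was lowest for 4 of 4 genes, in HoxB for 3 of 6 and in HoxA for 3 of 8. In HoxC it was lowest for 1 of 7. NC 3 was lowest there for 3 of 7 (42.9%) and over the 25 for 4 (16%), against 24.8% of all genes tested.

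The libraries also differed in the summed levels of cell type markers, which are set beside the Hox levels. The 8 Schwann cell markers summed to 9870, 1355 and 11829 CPM with the implant and to 1643, 22771 and 2052 CPM in NC, a 16.8-fold range, with none of the 8 at 0. Sox10, their lineage factor, stood at 178, 122 and 161 CPM with the implant and at 154, 243 and 21.7 CPM in NC. NC 2, lowest for HoxA, HoxB and HoxD, was thus the highest for Schwann markers, and NC 3, lowest for HoxC, was the lowest for Sox10. The 8 adipocyte markers summed to 2085, 4289 and 2609 CPM with the implant and to 3955, 1581 and 10779 CPM in NC, with none at 0, and Plin1 stood at 110 to 191 CPM with the implant and 129 to 645 CPM in NC. NC 2 was lowest for this list and for the endothelial, macrophage and red cell lists. In bulk tissue, fewer cells of a type and less RNA per cell cannot be told apart, and the part of these cell types in the Hox levels was not tested.

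Several marker lists spanned wider ranges than the Hox sum. The 9 skeletal muscle markers in the table spanned a 299-fold range, from 84.8 to 8326 CPM with the implant and from 27.8 to 1347 CPM in NC, with none at 0. Acta1, the actin of muscle fibres, stood at 20.8, 468 and 2093 CPM with the implant and at 5.86, 105 and 351 CPM in NC. The summed Hox level spanned 1.38-fold over the same libraries. Narrower ranges were found for the sums of the Hox partners (1.27-fold), Hox regulators (1.19-fold) and position factors (1.31-fold) described below. Single Hox genes varied more than their sum, with a median fold from the lowest to the highest library of 2.33, against 1.67 over all genes tested. The 8 fibroblast markers, of which none was at 0, summed to 9046 to 13968 CPM with the implant and to 12592 to 15003 CPM in NC, a 1.66-fold range, with Col1a1 at 2301 to 3795 CPM with the implant and 2475 to 3836 CPM in NC. The 6 endothelial markers spanned 2.19-fold, from 1228 to 1451 CPM with the implant and from 820.4 to 1796 CPM in NC, and Pecam1 was lowest in NC 2 at 207 CPM. Lists of pericytes (1.65-fold), macrophages (1.83-fold), cartilage and bone (2.93-fold) and perineurial cells (3.55-fold) differed less between libraries than red cell genes (35.0-fold) and muscle precursors (32.5-fold). The 4 keratinocyte markers in the table summed to 5.21 CPM at most, and among the 5 perineurial markers Lypd2 and Slc22a6 were at 0.

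**Figure D5:**
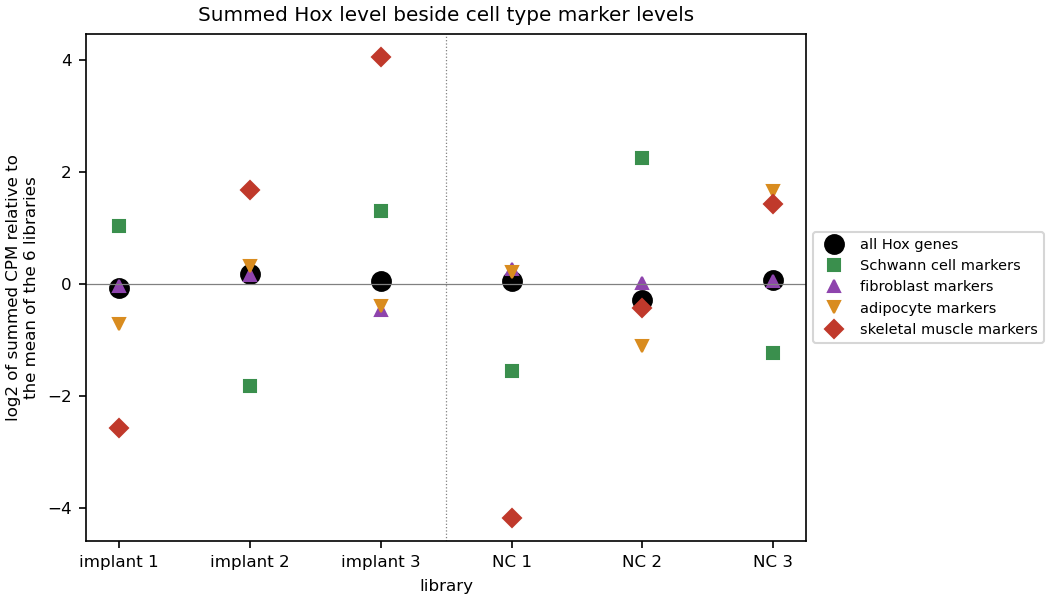
Summed CPM of all Hox genes and of 4 cell type marker lists in each library, as log2 relative to the mean of the 6 libraries (y axis), with the GDNF-Gel/HA-Mg libraries left of the dotted line and the NC libraries right of it. The Hox sum stays between -0.28 (NC 2) and 0.18 (implant 2), while the muscle list runs from -4.17 (NC 1) to 4.06 (implant 3).

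Partners of Hox proteins had counts in both groups. TALE homeodomain proteins of the Pbx, Meis and Pknox families bind DNA together with Hox proteins. All 9 listed genes had counts, 8 were tested, and edgeR called 0, with 3 positive and 5 negative log2 fold changes and a median of -0.03. Meis1 stood at 6.90, 8.31 and 8.25 CPM with the implant and at 10.7, 6.59 and 10.6 CPM in NC, and Meis2 at 8.25, 10.4 and 8.90 CPM with the implant and at 9.55, 7.80 and 13.005 CPM in NC. The groups overlapped for both, with log2 fold changes of -0.25 ± 0.24 for Meis1 and -0.14 ± 0.23 for Meis2. Pknox1 had 0.10 ± 0.15 and Pbx2 had 0.06 ± 0.11.

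Regulators known to set or hold Hox expression had small median changes. The deposited data list 35 of them, of which 31 were tested, edgeR called 0, and 19 were positive and 12 negative, with a median log2 fold change of 0.04. The caudal genes Cdx1, Cdx2 and Cdx4, which switch on posterior Hox genes in the embryo, had 0 counts in the 6 libraries. Aldh1a2, the enzyme that makes retinoic acid, stood at 5.03, 27.2 and 9.55 CPM with the implant and at 57.0, 7.97 and 18.6 CPM in NC, a wide spread in both groups (log2 fold change -1.001 ± 0.89). Zbtb16, a repressor known to act on HoxD genes, stood at 6.90, 5.76 and 9.31 CPM with the implant and at 4.77, 4.85 and 6.65 CPM in NC. NC 3 lay above implant 2, and the log2 fold change of 0.43 ± 0.27 had an edgeR unadjusted p of 0.154 and an adjusted p of 1.00. The retinoic acid receptor Rara had a log2 fold change of 0.15 ± 0.15.

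Position factors outside the clusters were partly at or near 0. The deposited data list 32 of them, of which 17 were tested, edgeR called 0, and 11 were positive and 6 negative, with a median log2 fold change of 0.03. Pitx1 and Tbx4, which set hindlimb identity in the embryo, had 1 to 15 and 0 to 3 counts per library. Tbx5, their forelimb counterpart, had 0, as had the head gene Otx2 and also Hand1 and Alx1. Limb and trunk mesenchyme genes were present, with Tbx15 at 33.8, 47.8 and 44.5 CPM with the implant and at 51.2, 33.1 and 52.4 CPM in NC. Prrx1 stood at 106, 125 and 81.7 CPM with the implant and at 144, 95.8 and 112 CPM in NC. Dlx5, the gene of this list with the smallest unadjusted p (edgeR 0.236, adjusted p 1.00), had a log2 fold change of -0.60 ± 0.45, and Meox1 had 0.55 ± 0.55.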

How the data were processed

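The members and gene lists were chosen with earlier results of these data known. A NEBNext Ultra kit, which does not mark strand, was used on oligo(dT)-selected RNA, per the labels' protocols. Per the submitters' processing notes, Bowtie2 2.2.8, HISAT2, StringTie 1.3.1 and DESeq2 were used, with no role given. What counter, build and annotation served is not stated there. The authors deposited estimated counts (expected counts) per gene, not normalized. All Hox counts were whole, and others were rounded. The columns named Gel_HA-Mg, without GDNF, were taken as the GDNF-Gel/HA-Mg group, the one group with that material. Genes passed filterByExpr, were scaled by TMM and tested with edgeR 4.0.16 (quasi-likelihood, two-sided, group as the one term, R 4.3.3). A gene was called at an adjusted p under 0.05. SE is the log2 fold change over the root of F. Alternatives were other scalings and filters, DESeq2 1.42.0, limma-voom (limma 3.58.1), a block for the replicate number, and leaving out each library. The test was run on simulated counts first. In the text stand the Hox genes, from the pathway lists up to 3 genes of lowest unadjusted p, and a set fixed by name. A few genes of these sets are not reported here. Symbols are as deposited: RefSeq gives Hoxa10 as an older name of Hoxa11, Hoxa9 of Hoxa7, Hoxc8 of Hoxc9 and Hoxa11 of Hoxa2. No pair of libraries agreed within sampling noise (lowest chi-square per degree of freedom 82.9).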

Additional observations from a re-analysis of the deposited data

How the results depend on the processing

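Over all genes, DESeq2 called 5 higher and 6 lower, against 0 of each with edgeR, and none of the 11 was a Hox gene. The Hox count stayed at 0 under every alternative run, and with 1 library left out the counts over all genes were also 0. The median Hox log2 fold change ranged from 0.07 (without NC 2) to 0.20 (without implant 1), and the summed difference from -0.55 to 15.4 CPM. Near 0 the sign of single genes turned. Hoxb7 was -0.0095 with RLE scaling and -0.0094 with DESeq2, Hoxa7 was -0.0030 with DESeq2 and Hoxc5 was -0.017 with limma-voom. With 1 library left out, the ranges that crossed 0 were -0.16 to 0.14 for Hoxa10, -0.55 to 0.44 for Hoxa2, -0.20 to 0.50 for Hoxa3, -0.19 to 0.15 for Hoxa7, -0.34 to 0.25 for Hoxb7, -0.89 to 0.080 for Hoxb9, -0.27 to 0.075 for Hoxc10, -0.039 to 0.33 for Hoxc11, -0.11 to 0.30 for Hoxc4, -0.16 to 0.27 for Hoxc5, -0.14 to 0.38 for Hoxc6 and -0.16 to 0.65 for Hoxc8. Ranges that kept their sign were wide too, from -0.35 (without implant 2) to -0.057 (without implant 1) for Hoxa9, from 0.058 (without NC 2) to 0.55 (without NC 3) for Hoxb3, from 0.084 (without NC 2) to 0.35 (without NC 1) for Hoxb4, from 0.23 (without implant 2) to 0.80 (without NC 3) for Hoxb6, from -0.58 (without implant 3) to -0.035 (without implant 2) for Hoxc9 and from 0.045 (without NC 2) to 0.19 (without implant 1) for Hoxd8. The cause was not tested. The replicate number as a block called 0 genes, with a median Hox log2 fold change of 0.13. Same-numbered libraries did not deviate together (correlations across genes 0.10, -0.72 and 0.06, against -0.61 to 0.52 for other pairs). With 3 libraries per group, whose deviations from the group mean depend on each other, these values cannot exclude a pairing by number. Hoxa11, Hoxa13, Hoxb5, Hoxb8 and Hoxd3 were too low for the filter, which limits what can be said of them to their counts.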
